A study of Mus musculus with 4 samples.

Results

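The EGF receptor family was followed through 10 genes in intestinal stem cells (ISCs) of young and old mice. They were the receptors Egfr, Erbb2 and Erbb3, the ligands Areg, Ereg, Epgn, Btc and Tgfa, and the inhibitors Lrig1 and Errfi1. Each gene was taken by its symbol from the 52459 genes listed in the count table, and all 10 were found. Of these, 7 had enough reads to enter the test, in which 13692 genes were compared between ages. The ISCs were sorted from the small intestine of wild-type (genotype WT) female C57/Bl6 mice of 2 months (ISC_2mth) or 22 months (ISC_22mth), with no treatment or transgene named in either group. There were 2 libraries for each age, each from a separate pool of 5 animals, so that values of single animals could not be seen. Cells were sorted as CD31- and CD45-, CD24med, CD166+, CD44high, GRP78low, EPHB2high and EPCAM+, a gate set on surface proteins that can admit neighbouring crypt cells. RNA was amplified along its full length and sequenced, and all values derive from raw read counts per gene. The comparison asks how ISCs of old and young mice differ in the transcripts of this family.

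EGF family ligands are made as membrane-anchored precursors, are released by proteases of the ADAM family, and bind receptors that pair with one another and phosphorylate each other's tails. EGFR binds most of the ligands studied here, ERBB2 binds no known ligand and acts as a partner, and ERBB3 binds neuregulins and signals through its partners because its own kinase is weak. Signals run through the RAS-ERK and PI3K-AKT branches. In the crypt, EGF signals promote ISC division, and EGF is a standard component of intestinal organoid medium. LRIG1 is a membrane protein that lowers the amount of ERBB receptors and marks crypt stem and progenitor cells, while the product of Errfi1, also called MIG6, binds the kinase domain of EGFR and ERBB2 and blocks it.

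Libraries held between 11662654 and 15975698 counts, of which mitochondrially encoded genes took between 62.57 and 65.71% in young and between 72.93 and 73.81% in old ISCs. This left between 3852178 and 4593004 counts on other genes. Values are given as CPM (read counts divided by the size of the library) after TMM scaling, which sets libraries to a common level from the bulk of the genes, and 3 counts, used as the floor of detection, were worth between 0.199 and 0.246 CPM. All 8 stem cell markers examined were kept, and 0 passed the test, with a summed level of 2025 and 1882 CPM in young and 1725 and 1915 CPM in old pools. Transcripts that mark other crypt cells were also present, and bulk counts do not show which cells held them. The 7 goblet markers summed to between 1945 and 2657 CPM, and Muc2, a goblet mucin, stood at 1014, 1275, 1441 and 1023 CPM beside 1302, 1230, 1111 and 1289 CPM of the stem marker Olfm4. The 9 enterocyte markers summed to 324.7 and 442.5 CPM in young and 815.8 and 688.3 CPM in old pools, and 4 of them were higher at FDR under 0.05 (edgeR). The 6 Paneth markers summed to 925.4 and 715.2 CPM in young pools and to 2062 and 800.1 CPM in old ones, so that ISC_22mth replicate 1 stood apart, and 2 of them were higher. Enteroendocrine markers summed to between 41.67 and 152.9 CPM, and of 6 tuft markers (between 2.829 and 8.248 CPM) only Dclk1 was higher. Dclk1 entered the test only through its reads in old pools. Leukocyte markers (11 genes, between 6 and 17 counts a pool) and stromal markers (10 genes, between 14 and 34 counts) were near absent, with 5 and 4 of them at 0 in all pools. The part of these cells in the values below was not tested.

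The family members lie on 5 chromosomes in the GENCODE vM21 annotation of GRCm38. Egfr (16752203 to 16918158) and Erbb2 (98412470 to 98437716) are on chromosome 11, and Erbb3 (128567523 to 128589652) is on chromosome 10. Tgfa (86195223 to 86275719) and Lrig1 (94604529 to 94700158) are on chromosome 6, and Errfi1 (150853919 to 150868892) is on chromosome 4. The other 4 ligand genes, Epgn, Ereg, Areg and Btc, share a stretch of 375.5 kb on chromosome 5, between 91027464 and 91402994. Exons of 4 members overlap exons of a gene on the opposite strand, by 9 bp (Erbb2 with Mien1), 118 bp (Tgfa with Gm43917), 141 bp (Ereg with Gm19610) and 144 bp (Lrig1 with Slc25a26). As the strand setting of the counting was not stated, reads of these bases could belong to either gene. At most 2.26% of a member's 50-nt stretches (Ereg) were found in another gene's transcripts.

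The upstream sequences of 6 members are printed, 4 of them because their young and old values did not overlap (Egfr, Erbb2, Lrig1 and Errfi1) and 2 as examples of ligands with almost no reads (Areg and Epgn). They are the bases before the transcript start in RefSeq (GRCm38.p6), 5′ to 3′ on the gene's strand, cut to those outside annotated exons, with the motifs defined in the next paragraph in capitals. The stretches are chr11:16751953-16752202 (+), chr11:98412234-98412469 (+), chr6:94700159-94700395 (-), chr4:150854950-150855069 (+, the second of the windows listed for this gene), chr5:91139349-91139598 (+) and chr5:91027267-91027463 (+). No window was matched for Erbb3 or Ereg.
Egfr: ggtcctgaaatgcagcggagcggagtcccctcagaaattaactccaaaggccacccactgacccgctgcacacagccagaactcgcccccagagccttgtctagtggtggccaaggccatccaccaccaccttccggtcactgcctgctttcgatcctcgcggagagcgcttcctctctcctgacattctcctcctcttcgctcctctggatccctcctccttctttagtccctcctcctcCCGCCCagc
Erbb2: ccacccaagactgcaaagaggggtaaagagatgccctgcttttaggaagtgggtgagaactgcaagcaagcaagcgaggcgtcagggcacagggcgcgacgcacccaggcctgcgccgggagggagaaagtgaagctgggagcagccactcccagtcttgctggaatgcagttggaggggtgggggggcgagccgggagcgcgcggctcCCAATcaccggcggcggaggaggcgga
Lrig1: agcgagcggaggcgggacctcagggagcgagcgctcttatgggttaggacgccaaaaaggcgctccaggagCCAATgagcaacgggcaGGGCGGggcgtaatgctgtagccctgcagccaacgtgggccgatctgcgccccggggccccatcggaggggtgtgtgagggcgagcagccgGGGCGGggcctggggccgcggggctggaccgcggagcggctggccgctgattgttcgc
Errfi1: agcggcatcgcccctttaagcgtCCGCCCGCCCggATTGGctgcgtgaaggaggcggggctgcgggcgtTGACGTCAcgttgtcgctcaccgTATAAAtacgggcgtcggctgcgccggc
Areg: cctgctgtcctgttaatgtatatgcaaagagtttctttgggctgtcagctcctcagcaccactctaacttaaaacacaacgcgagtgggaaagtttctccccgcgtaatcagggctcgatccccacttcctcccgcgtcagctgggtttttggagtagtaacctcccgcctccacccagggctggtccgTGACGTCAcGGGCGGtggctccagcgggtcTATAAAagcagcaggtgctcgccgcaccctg
Epgn: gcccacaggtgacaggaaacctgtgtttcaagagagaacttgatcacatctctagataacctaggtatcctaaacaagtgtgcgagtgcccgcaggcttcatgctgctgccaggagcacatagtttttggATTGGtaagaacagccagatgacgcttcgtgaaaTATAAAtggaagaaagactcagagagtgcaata

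The motifs searched on both strands, in the 250 bases before the start, were the GC box (GGGCGG), the TATA box (TATAAA), the CCAAT box (CCAAT), AP-1 (TGANTCA), EGR (GCGNGGGCG, which overlaps the GC box in letters), the core of IRF sites (AANNGAAA) and the cyclic AMP response element CRE (TGACGTCA). CRE was added after the sequences had been read. Windows were found for 8 of the 10 members, 9 in all. The Egfr, Erbb2 and Lrig1 windows were rich in GC and held no TATA box, with a GC content of 60.8% (Egfr), 66% (Erbb2) and 71.6% (Lrig1) against a median of 52.4% over all 32851 windows. The ligand windows of Tgfa (69.2%) and Btc (59.6%) were alike in both, while Areg had 57.2% and Epgn 46.8%. The 9 windows held between 1 and 30 CpG, against a median of 6 over all windows, and both ends of this range were windows of Errfi1 (1 in the first and 30 in the second). Btc (4) and Epgn (5) also lay under the median. A TATA box stood in the windows of Areg, Epgn and Errfi1, in 3 of 9 member windows and 12.37% of all windows. The full CRE stood in the windows of Areg and Errfi1, in 2 of 9 and in 1.546% of all. The GC box was found in 5 of 9 (32.74% of all), the CCAAT box in 4 of 9 (33.85%) and the IRF core in 2 of 9, both of Errfi1 (21.31%). AP-1 and EGR letters were found in 0 of 9 windows, where 6.749 and 4.697% of all windows hold them. A match of letters describes the sequence and is not a binding site.

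Old over young levels ranged from a fold of 0.755 (Errfi1) to 1.11 (Btc), and 0 of the 7 members tested passed FDR under 0.05 (edgeR's quasi-likelihood test with Benjamini-Hochberg adjustment over 13692 genes), where 2.26% of all genes did. Limma voom, DESeq2 and edgeR's likelihood ratio test also called 0 of 7, while scaling by total counts called 4 (Erbb2, Erbb3, Lrig1 and Errfi1, all lower), where it called 33.1% of all genes lower and 0.701% higher. At an unadjusted p under 0.05, the members Erbb2 and Errfi1 were lower and 0 were higher, against 7.65% of all genes lower and 9.26% higher. Both old pools lay below both young pools for Erbb2, Erbb3, Lrig1 and Errfi1, 4 of 7, where 23.6% of all genes tested did so. Both old pools lay above for Egfr, 1 of 7, against 24.0% of all genes. The median log2 fold change (22 over 2 months) was -0.11 over the 7 members and -0.0049 over all genes. In sorted bulk samples, fewer cells of a type and less RNA per cell cannot be told apart. With 2 pools an age, edgeR's SE and p-values draw largely on the spread between pools estimated over all genes, not on a gene's own pools alone. They do not measure the spread between animals.

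**Figure D1:**
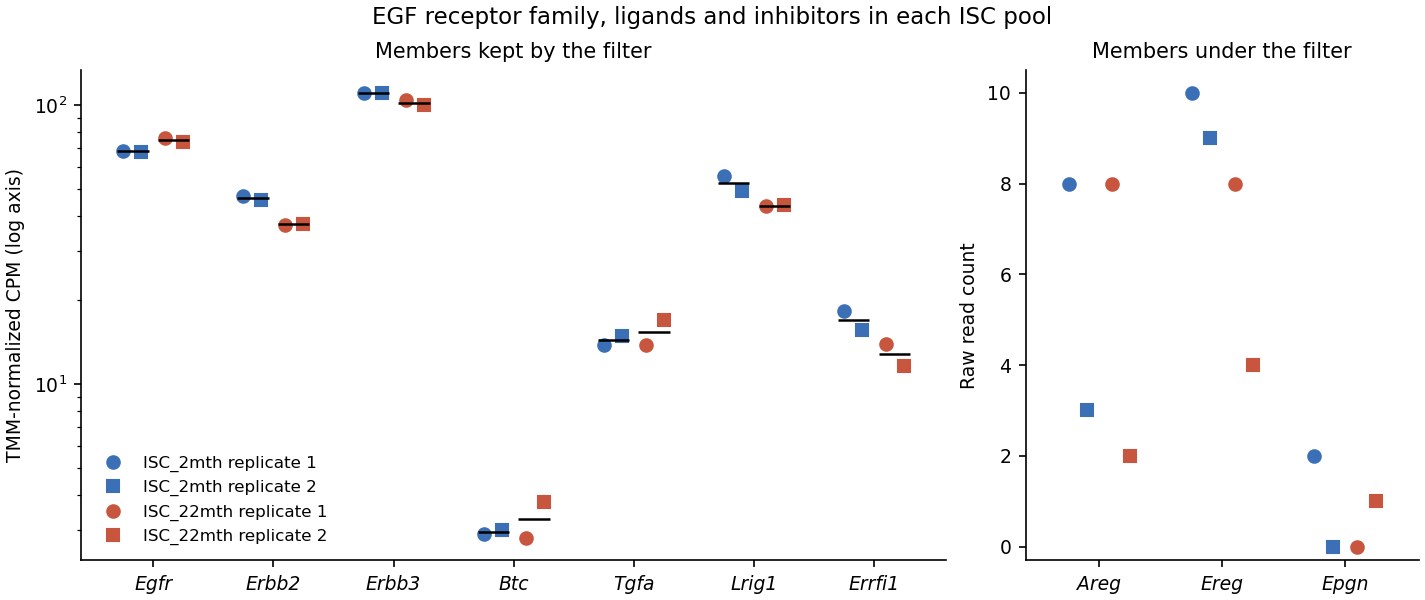
Level of the 10 genes in each of the 4 ISC pools, as TMM-normalized CPM on a log axis for the 7 members tested (left, black bars are the mean of 2 pools) and as raw read counts for the 3 members under the filter (right). Blue marks ISC_2mth and red ISC_22mth pools. The old pools of Erbb2 (37.2 and 37.4 CPM) lie below the young ones (47.3 and 45.7 CPM), and Tgfa and Btc overlap between ages.

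Among the receptors, Egfr, which binds EGF and TGFA, was present at 68.6 and 68.1 CPM in young and 76.0 and 73.6 CPM in old pools. These came from between 899 and 1027 reads a pool. The old pools were the higher ones after TMM scaling (-0.36 on the log2 scale under total counts), but the log2 fold change of 0.13 ± 0.12 (SE, n = 2 pools an age) had a 95% interval from -0.12 to 0.39 and edgeR's FDR was 0.628.

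Erbb2, the partner receptor without a ligand, stood at 47.3 and 45.7 CPM in young and at 37.2 and 37.4 CPM in old pools. The 2 pools of each age were close together and the ages did not overlap. Its log2 fold change was -0.32 ± 0.13 (SE), a fold of 0.803 with a 95% interval from 0.663 to 0.973, and edgeR's FDR was 0.229 (unadjusted p = 0.0275 in the same fit). With offsets for exonic GC content and length the log2 fold change was -0.14 (FDR = 0.662). Exons of Erbb2 hold 57.4% GC, against a median of 48.3% over the genes tested and 44.1% in Egfr.

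Erbb3, the receptor of neuregulins, was the most abundant member at 110.2 and 110.9 CPM in young and 104.0 and 100.2 CPM in old pools. The old pools were the lower ones, a fold of 0.924, and the log2 fold change of -0.11 ± 0.12 (SE) had a 95% interval from -0.36 to 0.13 (FDR = 0.668, edgeR). With the GC and length offsets it was -0.046. The fourth receptor of the family, Erbb4, had 0 reads in all 4 pools, so that any level lay under the floor of between 0.0161 and 0.0199 CPM per kilobase of exon.

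Both inhibitors were at lower values in the old pools. Lrig1 stood at 55.8 and 49.0 CPM in young and 43.4 and 43.8 CPM in old pools, which did not overlap. Its log2 fold change was -0.27 ± 0.13 (SE, 95% interval from -0.54 to 0.012, FDR = 0.318 by edgeR). It was -0.15 with the GC and length offsets (exonic GC content 54.8%) and -0.17 without ISC_2mth replicate 1, the pool of highest value.

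Errfi1 stood at 18.2 and 15.6 CPM in young and at 13.9 and 11.6 CPM in old pools, from between 141 and 264 reads. The 2 pools of each age were apart, but the lowest young pool was above the highest old one. Its log2 fold change of -0.41 ± 0.19 (SE) was the lowest of the members, a fold of 0.755 with a 95% interval from 0.576 to 0.990, and edgeR's FDR was 0.280 (unadjusted p = 0.0430 in the same fit). The GC and length offsets gave -0.46. Without ISC_22mth replicate 1, the pool with the most Paneth transcripts, Erbb2, Lrig1 and Errfi1 had log2 fold changes of -0.31, -0.26 and -0.55. Errfi1 was at -0.28 without ISC_22mth replicate 2 (FDR = 0.551, edgeR) and at -0.29 without ISC_2mth replicate 1 (FDR = 0.793, edgeR).

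Among the ligands, only Tgfa and Btc had enough reads for the test. Tgfa, a ligand of EGFR, stood at 13.8 and 14.8 CPM in young and 13.8 and 16.9 CPM in old pools, from between 182 and 224 reads. The ages overlapped, and the log2 fold change was 0.096 ± 0.18 (SE, 95% interval from -0.29 to 0.48, FDR = 0.842, edgeR).

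Btc, which binds both EGFR and ERBB4, stood at 2.90 and 2.98 CPM in young and 2.80 and 3.77 CPM in old pools. Its log2 fold change was 0.16 ± 0.36 (SE, 95% interval from -0.59 to 0.90, FDR = 0.869, edgeR), on between 37 and 46 reads a pool. For both ligands ISC_22mth replicate 2 was the highest pool, and without it the values turned to -0.057 (Tgfa) and -0.070 (Btc). The GC and length offsets gave 0.038 for Btc.

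Areg, Ereg and Epgn fell under the filter, which asks for over 5 reads and over 1 CPM in 1 pool or more. Areg, amphiregulin, had 8 and 3 reads in young and 8 and 2 reads in old pools. Ereg, epiregulin, had 10 and 9 reads in young and 8 and 4 reads in old pools. Epgn, epigen, had 2 and 0 reads in young and 0 and 1 read in old pools, at or under the floor of 3 counts throughout. A difference in age was not detectable at this depth for these 3 ligands.

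**Figure D2:**
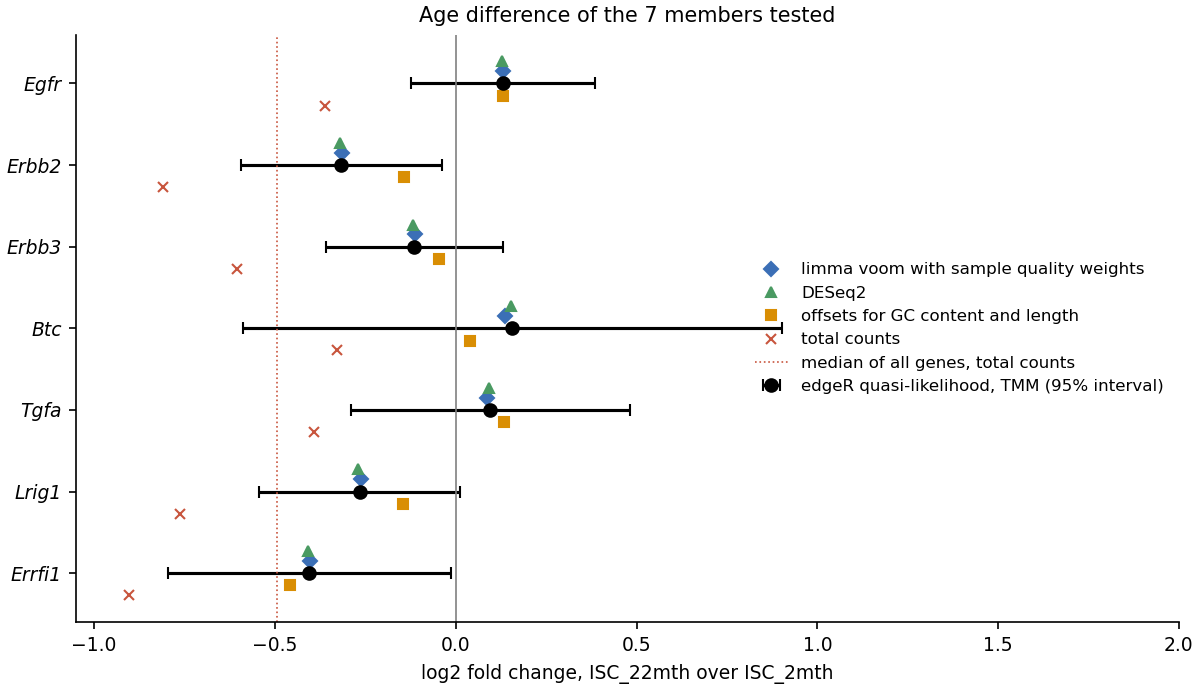
log2 fold change of old over young ISCs for the 7 members tested, with black points and bars for edgeR's quasi-likelihood fit and its 95% interval, and coloured marks for limma voom with sample quality weights, DESeq2, offsets for GC content and length, and scaling by total counts. The dotted line is the median of all genes under total counts (-0.49 on the log2 scale). Members keep their order relative to it because a change of scaling moves all genes by nearly the same amount.

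The direction of these differences is relative to the bulk of the genes. With scaling by total counts, in which the mitochondrial share enters, the median of all genes moved by -0.49 (log2), and all 7 members had negative log2 fold changes, Egfr, Btc and Tgfa having turned to -0.36, -0.33 and -0.39. Relative to that shift the values were 0.13 (Egfr), -0.31 (Erbb2), -0.11 (Erbb3), 0.17 (Btc), 0.10 (Tgfa), -0.27 (Lrig1) and -0.41 (Errfi1). They lie close to the TMM values because a change of scaling moves all genes by nearly the same amount, so they are no separate check.

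The levels of different genes were compared per exon length, as normalized CPM per kilobase of exon. Erbb3 led with a mean of 17.7 over the 4 pools (95.1st percentile of the genes tested). Lrig1 (8.60) and Erbb2 (8.04) followed, with pools that overlapped, from 7.76 to 9.99 and from 7.15 to 9.08. Egfr came next at 6.32, with its highest pool (6.71) under the lowest pool of Erbb2, and Errfi1 was at 4.14. The receptors and inhibitors all lay above the median gene (2.15), and Tgfa (2.28) lay near it.

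The 4 other ligands among the members lay below the median gene. Btc was at 0.688, Areg at 0.313, Ereg at 0.134 and Epgn at 0.0304 normalized CPM per kilobase. Among genes outside the 10, Nrg4, a neuregulin that binds ERBB4, ranked between Tgfa and Btc at 1.22, Hbegf (0.392) overlapped Areg, and Egf itself (0.0845) was below Ereg. Pools of Areg, Hbegf, Ereg and Egf overlapped with their neighbours in the order, so that these ranks are not resolved. With the length of the longest transcript in place of all exons, Nrg4 passed Tgfa and Egf passed Ereg.

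**Figure D3:**
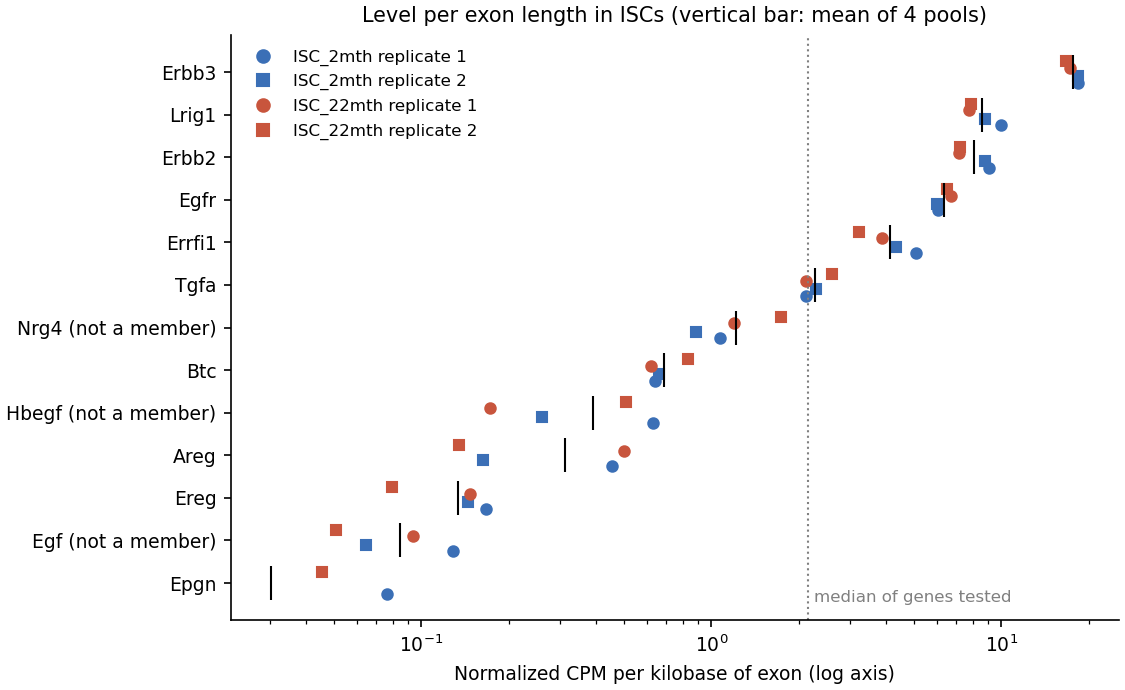
Normalized CPM per kilobase of exon (log axis) of the receptors, inhibitors and ligands with reads, in each ISC pool (blue ISC_2mth, red ISC_22mth, black bar the mean of 4 pools, pools at 0 not drawn). The receptors and inhibitors lie above the median of the genes tested (dotted line, 2.15), Tgfa on it, and the other ligands below.

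Ligand reads were few beside receptor reads. The 5 ligands summed to 262 and 281 reads in young and 235 and 259 reads in old pools, or 8.00, 8.29, 8.19 and 10.0 reads per 100 reads of the 3 receptors in the same order. Tgfa made up between 76.3 and 79.7% of these ligand reads in every pool. The mix of ligand transcripts thus overlapped between ages, and only ISC_22mth replicate 2 stood higher in the ratio.

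Values within a pool do not depend on the scaling between libraries, and shares and ratios were computed after the values of the single genes had been seen, as a description without a test. Egfr took 30.3 and 30.3% of the reads of the 3 receptors in young pools and 35.0 and 34.8% in old ones. The 95% Wilson intervals, which cover counting error only, reached up to 31.9% in young and began at 33.0% in old pools. Erbb2 took 20.9 and 20.3% in young and 17.1 and 17.7% in old pools. Its intervals met, from 19.0% upward in young and up to 19.2% in old pools. Erbb3 took 48.7 and 49.4% in young and 47.9 and 47.4% in old pools, with intervals that overlapped. Young and old pools did not overlap in any of the 3 shares, which are tied to one another. Of single genes tested, 23.6% had both old pools below both young ones and 24.0% above. Only for Egfr were the counting intervals of the ages apart, but pools of an age differed by more than counting error (chi-square per gene 9.54 in young and 7.19 in old). Per exon length the Erbb3 shares overlapped, at 54.75 and 55.51% in young and 55.51 and 54.91% in old pools.

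The ratio of Erbb2 to Egfr reads was 0.690 and 0.671 in young and 0.490 and 0.508 in old pools, lower by 26.6% on average. Lrig1 per Egfr was 0.814 and 0.721 in young and 0.571 and 0.595 in old pools, and Errfi1 per Egfr was 0.266 and 0.229 against 0.183 and 0.157. Erbb3 per Egfr was 1.61 and 1.63 against 1.37 and 1.36. Young and old pools did not overlap in any of these 4 ratios, which share the Egfr reads. How often ratios of other gene pairs separate in this way was not computed. Erbb3 per Erbb2 did not overlap either, at 2.33 and 2.43 in young and 2.79 and 2.68 in old pools. Lrig1 per Erbb2 overlapped, at 1.18 and 1.07 in young and 1.16 and 1.17 in old pools. Tgfa per Egfr also overlapped, at 0.201 and 0.218 in young and 0.181 and 0.229 in old pools. On the log2 scale the difference of Erbb2 from Egfr between ages was -0.45, and -0.27 with the GC and length offsets. The same difference went from -0.40 to -0.28 for Lrig1 and from -0.54 to -0.59 for Errfi1. The part of GC content in the Erbb2 and Lrig1 values was not tested further.

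**Figure D4:**
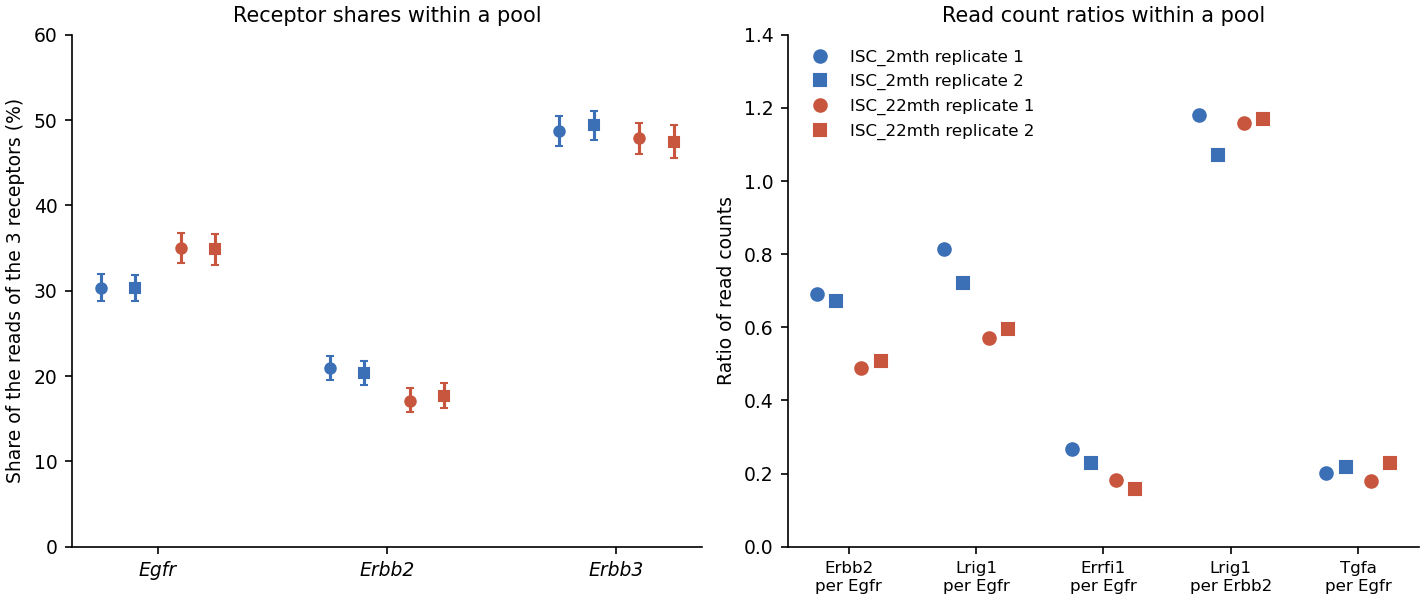
Left, share of Egfr, Erbb2 and Erbb3 in the reads of these 3 receptors in each pool (%), with 95% Wilson intervals. Right, ratios of read counts within a pool. Blue marks ISC_2mth and red ISC_22mth pools. The Egfr share lies near 30.3% in young and between 34.8 and 35.0% in old pools, and Lrig1 per Erbb2 overlaps between ages.

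The genes around the family were taken from 6 lists of 84 genes, of which 74 were tested and 0 passed FDR under 0.05 (edgeR), where 2.26% of all genes did, and 12 had an unadjusted p under 0.05, 7 higher and 5 lower, against 9.26 and 7.65% of all genes, which is near that background. Limma voom as run here also called 0, while the study's own list of age-related genes, made with limma voom, holds Erbin. Under total counts 32 of them were lower and 0 higher, where 33.1% of all genes were lower and 0.701% higher, and their median log2 fold change was -0.48, so that the directions given here hold after TMM scaling. Of the other receptors and ligands of the family, 3 of 7 were tested, and Erbb4, Nrg1, Nrg2 and Nrg3 had 0 reads in every pool. Nrg4 stood at 6.49 and 5.37 CPM in young and 7.27 and 10.6 CPM in old pools. Both old pools lay above the young ones, as in 24.0% of all genes, with a log2 fold change of 0.59 ± 0.25 (SE, FDR = 0.240, edgeR). Hbegf, which binds EGFR and ERBB4, ranged from 0.832 to 3.04 CPM and Egf from 0.573 to 1.45 CPM, with ages that overlapped.

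Of the 10 genes of ligand release, 8 were tested, and their median log2 fold change was 0.084. The 3 of lowest p were Adam9 at 0.39 (FDR = 0.418, edgeR), Rhbdl2 at 0.96 (FDR = 0.552) and Adam8 at -0.87 (FDR = 0.621), the last 2 on at most 18 reads a pool. Rhbdl2 passed the filter only through an old pool and Adam8 only through young pools, which favours their directions. Of the 20 genes of receptor turnover and damping, all were tested, with a median of -0.010. Erbin, an ERBB2-binding scaffold protein, stood at 141.1 and 115.0 CPM in young and 168.9 and 163.1 CPM in old pools (log2 fold change 0.38 ± 0.12, SE, FDR = 0.124, edgeR). The study lists this gene, under the name ErbB2ip, as higher in old ISCs at FDR under 0.05 (limma voom). Ptpn2, a tyrosine phosphatase, was at 23.0 and 24.5 CPM against 33.5 and 31.4 CPM (0.45 ± 0.15, FDR = 0.116). Erbin and Ptpn2 had both old pools above the young ones after TMM scaling, as did 24.0% of all genes tested. Of the 20 genes in this list, 3 lay above in this way and 5 below. Lrig2, a paralog of Lrig1, was at 17.0 and 17.7 CPM against 15.4 and 10.4 CPM (-0.42 ± 0.20, FDR = 0.285).

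All 23 genes of the RAS-ERK cascade entered the test, and their median was -0.0061 (log2), with 5 genes of unadjusted p under 0.05, 2 higher and 3 lower, where all genes gave 9.26 and 7.65%. Among those of lowest p were Ptpn11, the phosphatase SHP2, at -0.37 (FDR = 0.249, edgeR), and Plcg1, a phospholipase recruited to EGFR, at -0.45 (FDR = 0.272). In the PI3K-AKT branch 11 of 14 genes were tested, with a median of 0.023. Among those of lowest p, Inppl1 had -0.38 (FDR = 0.297, edgeR) and Pik3r1, a regulatory subunit of PI3K, had 0.16 (FDR = 0.505).

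Of the 10 ERK feedback genes, which ERK activity induces and which dampen it, 9 entered the test, and their median was -0.15 (log2). Spry2, a Sprouty inhibitor, had the lowest FDR of the 74 pathway genes tested in the edgeR fit, but not under limma voom. It stood at 4.49 and 4.37 CPM in young and 9.31 and 7.21 CPM in old pools, a log2 fold change of 0.90 ± 0.26 (SE, FDR = 0.0728, edgeR). The ERK phosphatase gene Dusp5 had 19 and 15 reads in young and 5 and 1 reads in old pools (-2.26 ± 0.94, SE, FDR = 0.229, edgeR), and Dusp4 had 16 and 24 against 5 and 9 reads (-1.27 ± 0.73, FDR = 0.405). In these 3 genes the ages did not overlap, with Spry2 higher and both phosphatase genes lower in the old pools. Of the 9 tested, 1 had both old pools above and 3 below, where 24.0 and 23.6% of all genes did. Dusp5 and Dusp4 passed the filter only through young pools, so a lower value in old pools was favoured by their entry. Exons of Dusp5, Inppl1, Nrg4, Plcg1, Adam8 and Egf overlap genes on the opposite strand, by between 46 and 1299 bp (1107 bp for Egf).

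**Figure D5:**
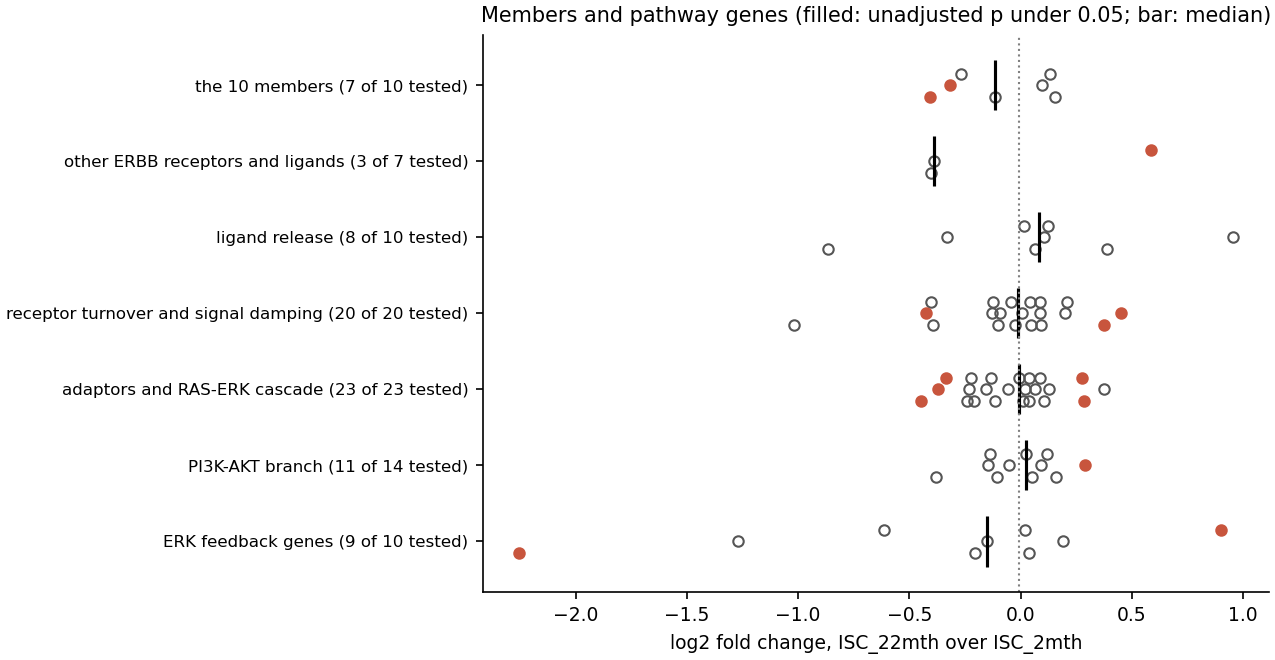
log2 fold change of old over young ISCs for the members and for each list of pathway genes (points are genes, filled where the unadjusted p was under 0.05, bars are the list's median, and the dotted line is the median of all genes tested). The members' median is -0.11 and those of the 2 largest lists are -0.010 and -0.0061, and 0 of these genes passed FDR under 0.05.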

How the data were processed

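The authors trimmed single-end SPIA reads (Trimmomatic 0.30), aligned them with STAR 2.4.2a to GRCm38, counted reads in exons of GENCODE vM15 with featureCounts, and deposited raw counts per gene. Strand setting and treatment of multimapping reads were not stated. Libraries were grouped by the labels, and their depth is given in the report. Replicates differed by more than sampling noise (chi-square per gene 9.54 and 7.19).

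Genes with over 5 reads and over 1 CPM in 1 library or more were compared with edgeR 4.0.16 (R 4.3.3, TMM, quasi-likelihood test, no covariate, Benjamini-Hochberg adjustment, FDR 0.05). Alternatives used limma 3.58.1, DESeq2 1.42.0, other scalings and filters, GC and length offsets (lowess, span 0.3) and each library left out. Lengths and GC content came from GENCODE vM21, matched by symbol (456 tested genes had none), and promoters from RefSeq. Members and gene lists were chosen with earlier results of these data known. Besides the members, all other ERBB receptors and ligands were named, and from each other list every gene with FDR under 0.05, otherwise at most the 3 of lowest p. Of the genes this rule names, 2 are not reported here. Levels per length were not tested. Fits were tested on simulated data.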

Additional observations from a re-analysis of the deposited data

How the results depend on the processing

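Among the 7 members, 0 were called under every alternative but total counts, which called 4 (Erbb2, Erbb3, Lrig1 and Errfi1, all lower) and turned Egfr (-0.36), Btc (-0.33) and Tgfa (-0.39). Leaving out ISC_22mth replicate 2 turned Btc (-0.070) and Tgfa (-0.057), where leaving out ISC_22mth replicate 1 gave 0.36 and 0.24. Over all genes, 309 were called by edgeR's quasi-likelihood test, 197 by DESeq2, 611 by the likelihood ratio test, 4632 under total counts (96 higher and 4536 lower), 554 without a filter, 121 with GC and length offsets, and between 147 and 691 with 1 library left out, where the lone library of an age is assumed to vary like the others. The count was 147 without ISC_2mth replicate 1, 647 without ISC_22mth replicate 1 and 691 without ISC_22mth replicate 2, and the cause was not tested. Replicate numbers mark different pools of animals and their deviations did not correlate (-0.0059). The replicate block called 623 genes and 0 members. Of 84 pathway genes, 32 were called under total counts. The longest transcript as length moved 4 ranks. Counts on 3 ligands limit their comparison.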

Other observations

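Lrig1 is also used as a marker of crypt stem cells, and the 8 stem cell markers give its values a setting. In the same fit (edgeR, Benjamini-Hochberg adjustment over all genes), the log2 fold change of old over young ISCs was -0.27 for Lrig1 (FDR = 0.318), -0.16 for Lgr5 (FDR = 0.525) and -0.077 for Olfm4 (FDR = 0.756). Axin2, a target of WNT signals, stood at 148.7 and 128.0 CPM in young and 102.0 and 98.6 CPM in old pools, with -0.46 (FDR = 0.0511). Sox9 had -0.28 (FDR = 0.247) and Tnfrsf19 -0.46 (FDR = 0.258). Ascl2, a transcription factor of ISCs, had 0.33 (FDR = 0.199), Smoc2 0.15 (FDR = 0.588) and Cdca7 -0.036 (FDR = 0.925). Of these 9 genes 0 passed the test, while the study lists Axin2 as lower in old ISCs at FDR under 0.05 (limma voom). The values are relative to the bulk of the genes, whose median moved by -0.49 under total counts.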
